A study of Mus musculus with 15 samples.

Results

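Hydin, Slc11a1, Arhgap30, Necap2, Rragd and Calml4 are 6 of the 21662 genes counted in this RNA-seq data set of mouse embryonic stem cells (ESC), and they were followed here through all 15 samples. They were selected by their values in one part of the data: each was shifted in the Hmga1 KO line, or in the lines made from it, against the wild type (WT) of the same experiment. Those shifts are therefore given as a description and without a test. The full-deletion experiment took no part in the selection rule and is tested. Earlier results of these data were, however, known when the members were chosen.

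Hmga1 is a small chromatin protein that binds AT-rich DNA, and Hmga2 is its close relative. The KO experiment comprised 3 samples of the WT line (a, b and c), 2 of the Hmga1 KO, 2 of the Hmga1 add-back and 2 of the Hmga2 add-back. In the KO a Cas9 cut shifted the reading frame of Hmga1, and the add-backs are KO cells that carry a biotin-tagged Hmga1 or Hmga2 cDNA under the ubiquitous CAG promoter, called rescues in the labels. The second experiment comprised 3 WT samples and 3 samples of a full deletion, in which a pair of cuts removed the complete coding sequence of Hmga1. The parental cells express the biotin ligase BirA. Cas9-edited lines were isolated from single cells, so that each genotype is represented by 1 line and its own history cannot be told apart from its genotype. Cultures were independent and harvested on different days, but a sample is a culture of the same line, and the spread between samples measures cultures and libraries. Here the letters stand for batches of library preparation and sequencing in the KO experiment. In bulk RNA fewer cells that express a gene and less RNA per cell cannot be told apart.

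The 6 genes have no common pathway. Hydin encodes a giant protein of the central apparatus of motile cilia, the pair of microtubules at the core of the axoneme, and its loss causes hydrocephalus. Slc11a1 (Nramp1) is a divalent metal transporter of the phagosome membrane in macrophages and governs resistance to intracellular pathogens. Arhgap30 is a GTPase-activating protein that acts on the actin cytoskeleton. Necap2 binds the AP adaptor complexes of clathrin-coated vesicles and acts in receptor recycling. Rragd is one of the Rag GTPases, which bring mTORC1 to the lysosome when amino acids are plentiful. Calml4 is a calmodulin-like protein of the complex that links the microvilli of the brush border.

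Summed counts ranged from 13465399 to 34952136 per sample in the KO experiment and from 14832310 to 21708492 in the full-deletion experiment. Values are given as CPM, counts scaled to a common library size after TMM normalization within an experiment. WT b of the full-deletion experiment stood apart from the other libraries, with a TMM factor of 0.752 against 0.986 to 1.12 in the rest of that experiment, and results are given with and without it. Hmga1 itself averaged 320 ± 128 CPM over the first WT (SD, n = 3) and 156 ± 85.4 over the KO (SD, n = 2), where a frameshift does not remove the transcript, and 340 ± 26.1 in the second WT (SD, n = 3) against 11.8 ± 0.766 in the full deletion (SD, n = 3). Hmga2 was at 235 ± 19.2 CPM in the Hmga2 add-back (SD, n = 2) and at 16.4 ± 3.61 in the KO (SD, n = 2). In the samples labelled as the Hmga1 add-back, Hmga1 was at 184 and 123 CPM, against 217 and 96.0 in the KO. Its counts therefore do not show the added cDNA, and the Hmga1 add-back is named here by its label. By Western blot the paper reports Hmga1 protein in this line, at a level comparable to WT. All 15 pluripotency markers, among them Pou5f1, were above 1 CPM in each group, with a summed level between 5809 and 9419 CPM. Of 15 macrophage and blood markers 11 stayed under 1 CPM in each group, and of 15 feeder fibroblast markers at least 7. The summed level over all samples was 32.1 to 73.3 CPM for the macrophage and blood markers and 15.7 to 46.6 for the feeder markers. The part of such cells in the level of any member was not tested. The Y-linked genes were lower in the edited lines: their summed level was 86.0 to 125 CPM in WT, 0.385 to 8.66 in the KO and add-backs, 99.8 to 156 in the second WT and 32.02 to 33.9 in the full deletion. All 3 tested, Eif2s3y, Uty and Ddx3y, fell in the full deletion. Uty and Ddx3y had an adjusted p of 0.00114 and 0.000478 in edgeR. Eif2s3y averaged 29.7 ± 1.08 CPM there against 80.6 ± 27.2 in its WT (SD, n = 3 each). The part of this Y-linked loss in any result was not tested.

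The promoters of Hydin, Arhgap30 and Calml4 are shown because these genes moved together in both experiments. Each is the 250 bases before the RefSeq transcription start (GRCm38.p6 table), 5′ to 3′ on the plus strand, with CpG dinucleotides in capitals. Each matched the NCBIM37 genome exactly once, at chr8:112790627-112790876 for Hydin, chr1:173318841-173319090 for Arhgap30 and chr9:62705661-62705910 for Calml4.
Hydin: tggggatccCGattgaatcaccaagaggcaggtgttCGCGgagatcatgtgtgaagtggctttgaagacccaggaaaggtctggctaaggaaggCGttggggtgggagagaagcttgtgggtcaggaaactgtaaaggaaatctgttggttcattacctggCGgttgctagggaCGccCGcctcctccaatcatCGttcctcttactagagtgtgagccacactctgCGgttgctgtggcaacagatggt
Arhgap30: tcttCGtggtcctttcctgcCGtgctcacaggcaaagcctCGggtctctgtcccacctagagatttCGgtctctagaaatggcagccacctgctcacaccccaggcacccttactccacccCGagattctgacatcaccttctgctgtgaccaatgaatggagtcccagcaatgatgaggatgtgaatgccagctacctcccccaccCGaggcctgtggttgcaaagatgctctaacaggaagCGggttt
Calml4: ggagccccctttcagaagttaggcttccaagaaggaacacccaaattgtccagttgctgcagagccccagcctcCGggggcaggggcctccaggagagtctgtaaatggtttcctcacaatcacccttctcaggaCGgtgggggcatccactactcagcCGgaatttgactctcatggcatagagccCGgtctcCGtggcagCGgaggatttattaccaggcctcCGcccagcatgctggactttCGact
These stretches held 9, 7 and 8 CpGs. The promoters of Slc11a1 and Rragd, also in the table, held 5 each. The median was 6 over all 32841 promoters of the table and 15 over those of genes that the KO experiment could test, so that all 5 fell below the median of expressed genes. AT content was 46.4% for Hydin, 44.4% for Arhgap30 and 42.4% for Calml4, against medians of 47.6% over all promoters and 40.0% over those of tested genes. Of 4 motifs searched on both strands, the CCAAT box occurred once in Hydin and once in Arhgap30 (33.9% of all promoters and 35.4% of those of tested genes hold it) and the GC box GGGCGG once in Calml4 (32.7% and 57.8% hold it). TATAAA (12.4% and 6.32% hold it) and the E-box CACGTG (6.02% and 8.41% hold it) occurred in none of the 5. The promoter of Necap2 was not analysed here.

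Hydin lies on chromosome 8 from 112790877 to 113134153 on the plus strand (NCBIM37, the build of the files), a gene of 343277 bases with 17738 exonic bases in the count table. In WT a, b and c it had 6.64, 8.997 and 7.79 CPM. The KO had 21.8 and 33.8 CPM in batches a and b, the Hmga1 add-back 26.1 and 26.5, and the Hmga2 add-back 30.8 and 41.7. All 6 samples of the KO and its descendants lay above all 3 WT samples, and both add-backs were as high as the KO. The second WT had 24.0, 38.8 and 23.4 CPM, within the range of the KO-derived samples and not of the first WT. In the full deletion it was 16.2, 14.4 and 13.7 CPM, below each sample of its own WT and above each sample of the first.

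Arhgap30 lies on chromosome 1 from 173319085 to 173340429 on the plus strand. It had 7.08, 17.3 and 11.4 CPM in WT. The KO gave 21.7 and 43.8, the Hmga1 add-back 26.8 and 39.9, and the Hmga2 add-back 34.3 and 50.1. Batch b exceeded batch a in each line, yet no KO-derived sample overlapped the WT samples. In the second WT it had 38.1, 73.3 and 36.3 CPM, with the highest of its 15 values in WT b, the library that stands apart. The full deletion had 20.8, 23.3 and 22.1 CPM, all below its WT.

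Calml4 lies on chromosome 9 from 62705911 to 62723725 on the plus strand. Its level in WT was 1.39, 3.26 and 3.28 CPM. The KO was at 9.96 and 12.8 CPM, the Hmga1 add-back at 6.06 and 10.9 and the Hmga2 add-back at 8.08 and 12.5. The lowest KO-derived value thus lay above the highest WT value. The second WT had 12.05, 26.3 and 13.4 CPM, and the full deletion 4.90, 6.39 and 5.77. As for Hydin and Arhgap30, the levels in the full deletion fell between the 2 WT groups and overlapped neither. The lowest count behind these values was 42 in WT b, with an exact Poisson interval at 95% from 30.3 to 56.8, which covers counting error only.

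Slc11a1 lies on chromosome 1 from 74421777 to 74432636 on the plus strand. It had 2.69, 2.09 and 2.03 CPM in WT, 8.41 and 6.69 in the KO, 8.93 and 6.45 with Hmga1 added back and 11.5 and 7.81 with Hmga2 added back. The KO-derived samples were all higher than WT, and within each line batch b was the lower one. The second WT had 5.88, 3.001 and 5.59 CPM, with the lowest value in WT b, and the full deletion 5.50, 6.78 and 7.67. These groups overlapped. Its lowest count, 27 in WT b of the KO experiment, has an exact Poisson interval from 17.8 to 39.3.

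Necap2 lies on chromosome 4 from 140622427 to 140634272 on the minus strand. In WT it had 41.6, 36.1 and 32.6 CPM, in the KO 65.9 and 54.3, with Hmga1 added back 95.8 and 65.4 and with Hmga2 added back 80.3 and 54.97. Here the KO-derived samples were above WT by a smaller factor than those of the genes above. The second WT had 43.9, 30.1 and 41.6 CPM, overlapping the first, and the full deletion 47.5, 48.8 and 48.9. Necap2 was the only one of the 6 genes whose WT groups overlapped. The share of all genes with such an overlap is not given here, so nothing is read from this.

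Rragd lies on chromosome 4 from 33070012 to 33109155 on the plus strand and was the only member that was lower in the KO line. It had 111, 125 and 106 CPM in WT, 77.8 and 88.7 in the KO, 65.8 and 69.9 with Hmga1 added back and 71.96 and 77.5 with Hmga2 added back. In the second experiment WT had 82.1, 62.7 and 71.4 CPM and the full deletion 71.0, 70.4 and 67.9. All 6 of these samples were below the first WT, and the 2 groups overlapped.

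**Figure D1:**
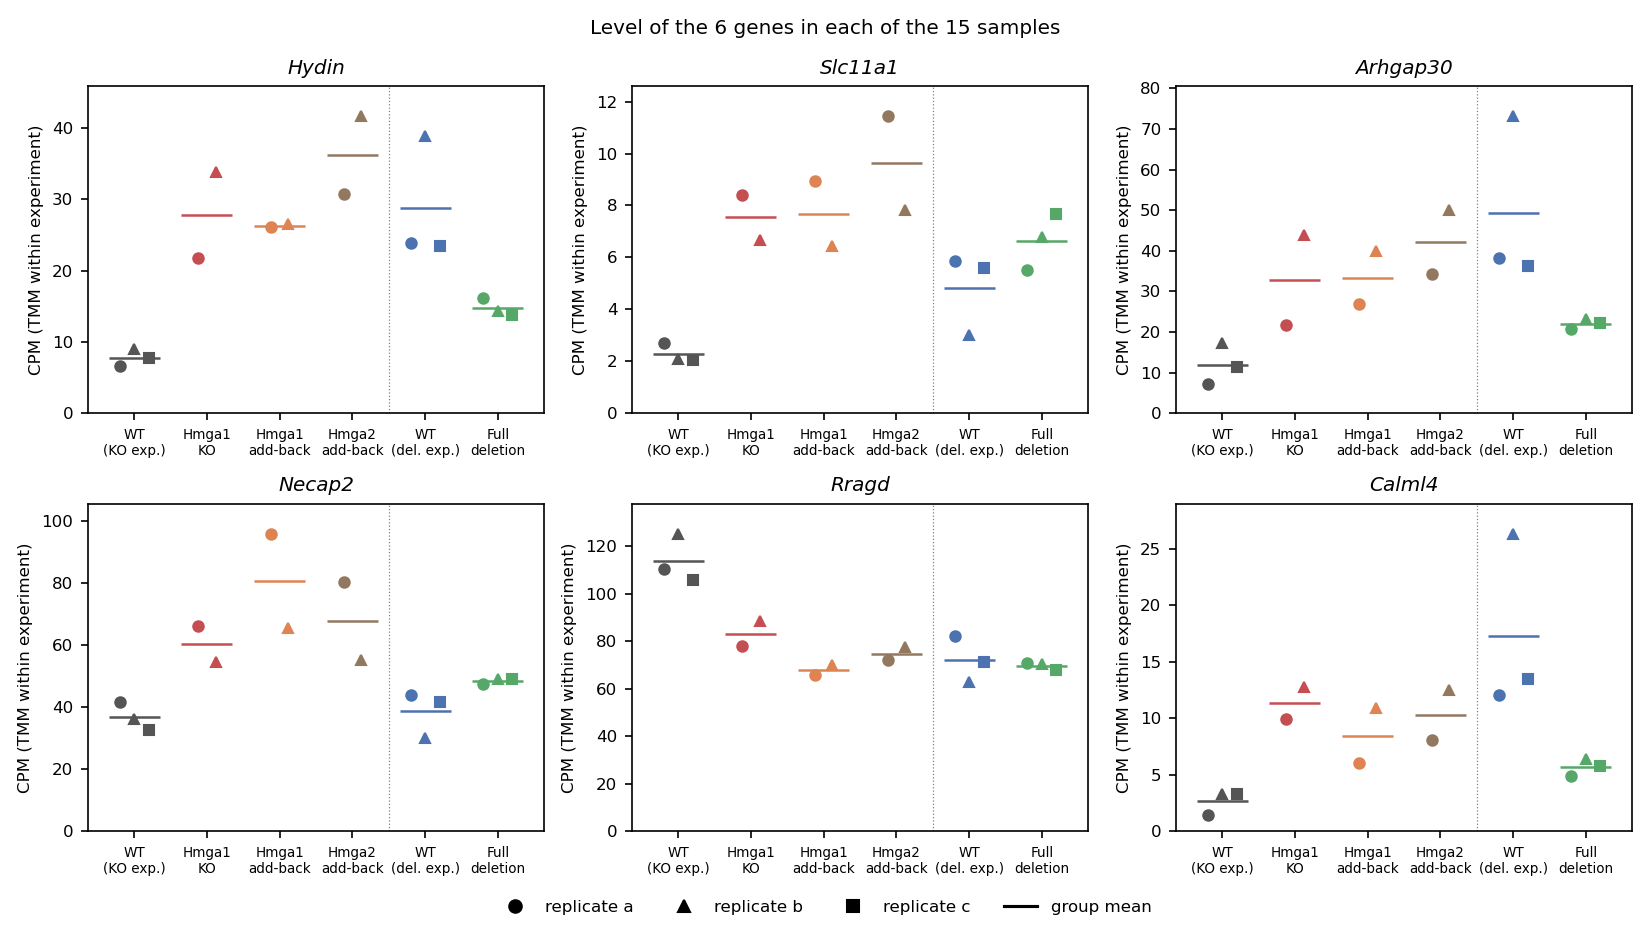
CPM (TMM within experiment, linear axis from 0) of each gene in the 15 samples. Points are samples (circle a, triangle b, square c), horizontal lines are group means, and the dotted line divides the experiments. Hydin, Arhgap30 and Calml4 were low in the first WT, at means of 7.81, 11.9 and 2.64 CPM, and high in the second, at 28.7, 49.2 and 17.3 CPM.

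Per length of transcript, Necap2 and Rragd were the most abundant of the 6 in WT of the KO experiment, with 19.4 ± 2.38 and 17.9 ± 1.61 RPKM (SD, n = 3), CPM divided by exonic kilobases, and this pair did not differ beyond its spread. Arhgap30 followed at 2.57 ± 1.11 and Calml4 at 2.08 ± 0.851 RPKM, again within their spread (SD, n = 3). Slc11a1 had 0.985 ± 0.157 and Hydin 0.440 ± 0.0665 RPKM (SD, n = 3). In the second WT the order was different. Calml4 reached 13.6 ± 6.196 and Arhgap30 10.6 ± 4.49 RPKM (SD, n = 3), overlapping Rragd at 11.3 ± 1.53, while Necap2 was at 20.4 ± 3.90 (SD, n = 3).

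In the model with batch as a term, the log2 fold change of the KO over WT was 2.42 for Calml4 (SE 0.26), 1.82 for Hydin (SE 0.18), 1.66 for Slc11a1 (SE 0.22), 1.47 for Arhgap30 (SE 0.20), 0.63 for Necap2 (SE 0.13) and -0.50 for Rragd (SE 0.10). The Hmga1 add-back over WT gave 1.93, 1.78, 1.68, 1.56, 1.04 and -0.79 in the same order, and the Hmga2 add-back 2.24, 2.21, 2.01, 1.90, 0.78 and -0.66. These 3 comparisons share the WT samples. In this model they rest on WT a and b, because WT c is alone in its batch. Each gene kept the sign of its KO value in both add-backs, and no add-back mean returned to the WT range. Against the KO itself the Hmga1 add-back differed by between -0.49 (Calml4) and 0.41 (Necap2) and the Hmga2 add-back by between -0.18 (Calml4) and 0.44 (Arhgap30).

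The 6 KO-derived samples lay wholly above the 3 WT samples for 5 members and for 5.15% of all tested genes, and wholly below for Rragd and for 3.67% of all. Because the genes were picked on these samples, nothing is read from those counts.

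**Figure D2:**
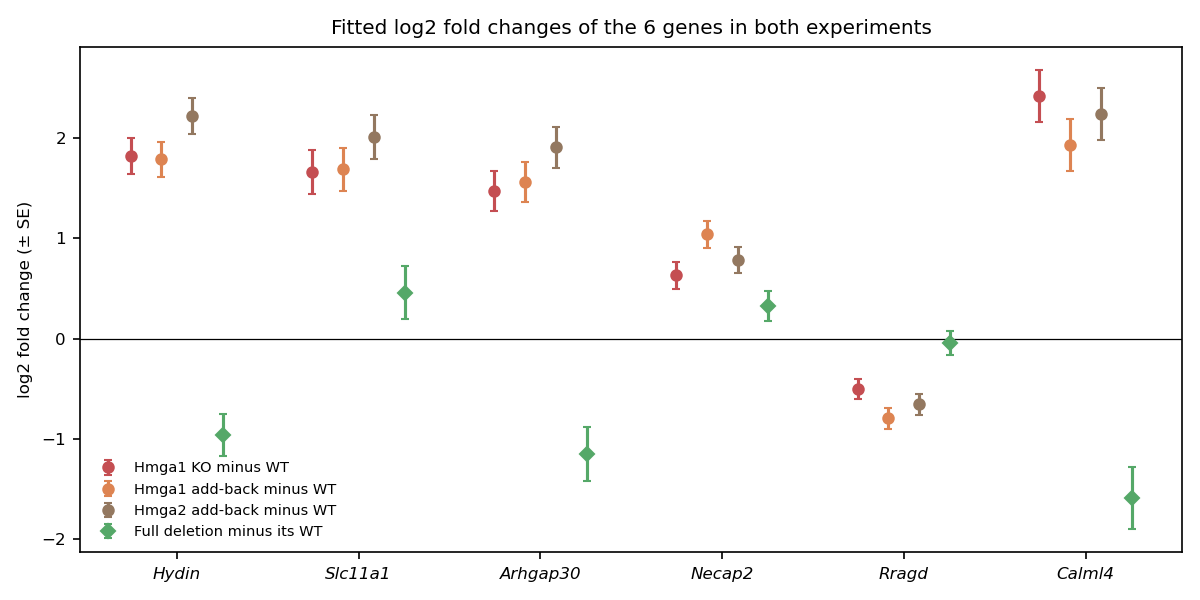
Fitted log2 fold change (y axis) of each gene (x axis) in the KO and the add-backs against WT (circles) and in the full deletion against its own WT (green diamonds), with bars for the standard error. For Hydin, Arhgap30 and Calml4 the circles lie between 1.47 and 2.42 and the diamonds between -1.59 and -0.96.

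The full deletion asks whether removal of Hmga1 in another line moves the same genes. To be called, a gene needed at least a 2-fold difference and, after Benjamini-Hochberg adjustment of edgeR's quasi-likelihood p, a value under 0.01. Hydin, Arhgap30 and Calml4 were lower in the full deletion than in its WT, the opposite side to the KO. Calml4 was at 5.68 ± 0.749 CPM against 17.3 ± 7.88 (SD, n = 3 each), a change of -1.59 on the log2 scale (SE 0.31, adjusted p = 0.0339, quasi-likelihood test of edgeR). Arhgap30 was at 22.1 ± 1.24 CPM against 49.2 ± 20.8 (SD, n = 3 each), a change of -1.15 (SE 0.27, adjusted p = 0.0444, same test in edgeR). Hydin was at 14.8 ± 1.29 against 28.7 ± 8.74 CPM (SD, n = 3 each), a change of -0.96 (SE 0.21, adjusted p = 0.0410, same test in edgeR). None reached the adjusted p under 0.01 required for a call.

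The other members stayed above an adjusted p of 0.05 in edgeR. Slc11a1 had a log2 fold change of 0.46 (SE 0.27, adjusted p = 0.239 in edgeR), Necap2 of 0.33 (SE 0.15, adjusted p = 0.151 in edgeR) and Rragd of -0.05 (SE 0.12, adjusted p = 0.783 in edgeR). For Necap2 the 3 full-deletion samples lay above the 3 WT samples, as they did for 26.7% of all tested genes. The 3 deletion samples lay below all WT samples for Hydin, Arhgap30 and Calml4, and for 24.7% of all tested genes.

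Thus 0 of 6 members were called in the full deletion, against 0.0687% of the 13098 genes tested. At an unadjusted p under 0.05 in edgeR there were 3 members and 4843 genes in all. With the adjusted p relaxed to 0.05 and the 2-fold limit kept, Arhgap30 and Calml4 passed, with 2.77% of all genes. The Wald test of DESeq2 called Hydin, Arhgap30 and Calml4 at the main threshold, together with 3.53% of all genes. Limma-trend called 0 members and 0.0534% of all genes, with 3 members and 4816 genes at an unadjusted p under 0.05. Much of the spread came from WT b. Without it Calml4 was called, at -1.15 (SE 0.14, adjusted p = 2.33e-06 in edgeR), together with 2.75% of all genes. Arhgap30 then stood at -0.75 (SE 0.08, adjusted p = 7.86e-07 in edgeR) and Hydin at -0.69 (SE 0.10, adjusted p = 1.8e-05 in edgeR), both under the 2-fold limit. Without WT b, Necap2 was at 0.18 (SE 0.07, adjusted p = 0.0408 in edgeR), Slc11a1 at 0.23 (adjusted p = 0.278 in edgeR) and Rragd at -0.14 (adjusted p = 0.107 in edgeR).

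The WT samples of one experiment did not overlap those of the other for 5 of the 6 genes, all but Necap2. The share of all genes for which this held is not given here, so nothing is read from the count. The mean of the second WT over the first was 6.54-fold for Calml4, 4.12-fold for Arhgap30, 3.68-fold for Hydin, 2.12-fold for Slc11a1, 1.05-fold for Necap2 and 0.633-fold for Rragd. The KO-derived samples over the first WT gave 3.80-fold for Calml4, 3.02-fold for Arhgap30, 3.86-fold for Hydin, 3.65-fold for Slc11a1, 1.89-fold for Necap2 and 0.661-fold for Rragd. Of the 3 samples of the second WT, 3 were within the range of the KO-derived samples for Hydin, 2 for Arhgap30, 2 for Rragd, 1 for Calml4 and 0 for Slc11a1 and Necap2. Not one full-deletion sample lay within the range of the first WT for any of the 6 genes. Both ranges come from samples used in the selection, which makes values outside the range of the first WT likely. No share over all genes is given for these counts, and nothing is read from them. TMM was also computed over all 15 samples together, a setting added after the data were seen. The samples of the second WT within the range of the KO-derived samples then numbered 2 for Hydin, Slc11a1, Arhgap30 and Rragd and 0 for Calml4 and Necap2, and the WT ratio was 7.72 for Calml4, 4.86 for Arhgap30, 4.34 for Hydin, 2.48 for Slc11a1, 1.23 for Necap2 and 0.742 for Rragd. These libraries were prepared and sequenced separately, so that experiment and culture cannot be told apart, and the ratios carry no test.

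**Figure D3:**
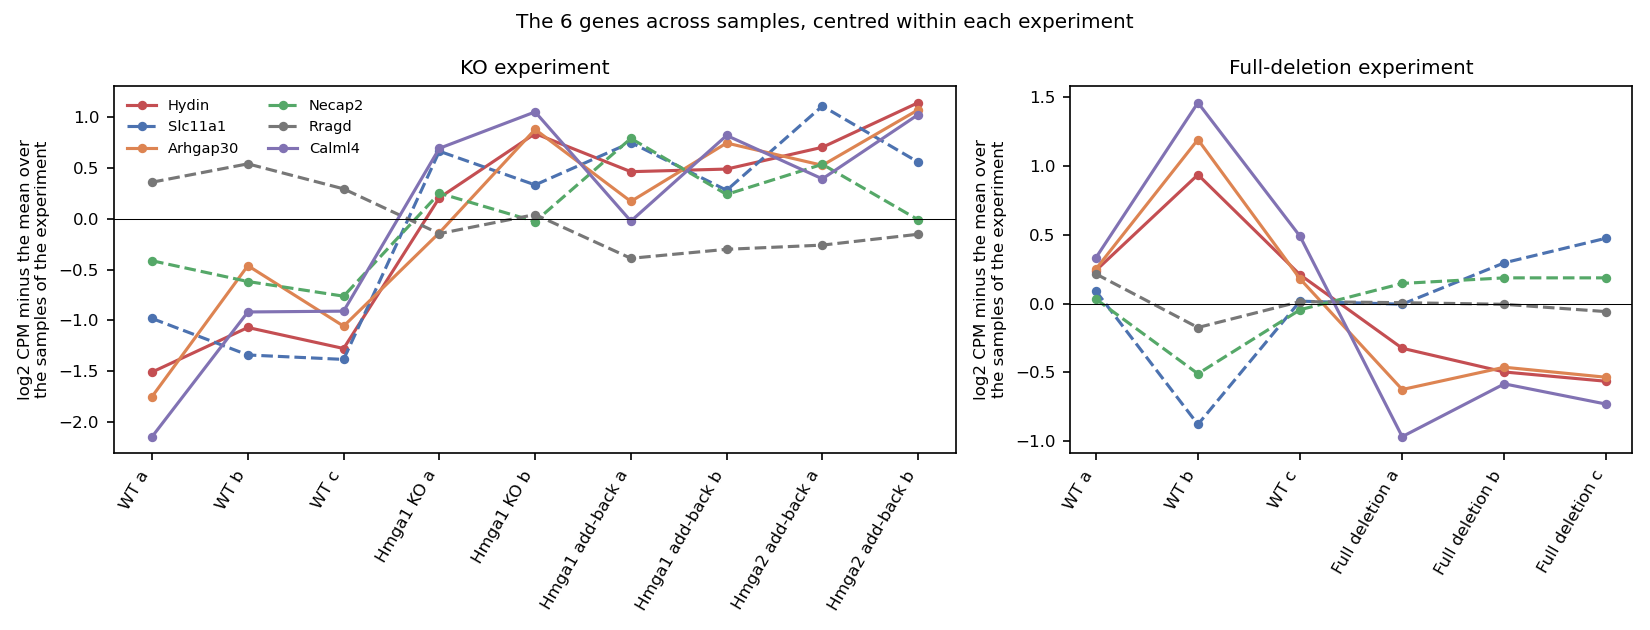
log2 CPM of each gene minus its mean over the samples of the experiment (y axis) in the 9 samples of the KO experiment (left) and the 6 of the full-deletion experiment (right), with lines joining the samples of a gene. Hydin, Arhgap30 and Calml4 (solid) move together in both panels and peak in WT b on the right, where Slc11a1 and Necap2 are at their lowest.

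Batch was a second source of variation, and its contrast was no part of the selection. Its test, however, uses the same 9 samples and the same spread left by the model as the comparisons behind the selection. A small spread lowers the p of both, so nothing is read from how many members passed. Arhgap30, Calml4 and Hydin were higher in batch b than in batch a, and Necap2 and Slc11a1 lower. Arhgap30 in batch b was 2.44-fold its batch a level in WT, 2.02-fold in the KO, 1.49-fold with Hmga1 added back and 1.46-fold with Hmga2 added back. Across the 4 lines its log2 difference was 0.84 (SE 0.14, adjusted p = 0.00365, quasi-likelihood test of edgeR). Calml4 differed by 0.72 (adjusted p = 0.0143 in edgeR), Hydin by 0.38 (adjusted p = 0.0392 in edgeR), Necap2 by -0.40 (adjusted p = 0.0131 in edgeR), Slc11a1 by -0.43 (adjusted p = 0.0496 in edgeR) and Rragd by 0.14 (adjusted p = 0.159 in edgeR). With the 2-fold limit 0 members were called, against 2.34% of all genes. DESeq2 and limma-trend also called 0 members. At an unadjusted p under 0.05 there were 5 members by each of the 3 tools, among 6534 genes by edgeR, 5865 by DESeq2 and 6522 by limma-trend. With an adjusted p under 0.05 and no limit on the fold 5 of 6 passed, where 35.6% of all genes did. Arhgap30, Calml4 and Hydin, higher in batch b, had their highest value of the second WT in WT b, and Necap2 and Slc11a1, lower in batch b, had their lowest there. Rragd, 1.06-fold to 1.14-fold higher in batch b of each line, was also lowest in the second WT b. What batch b and that library share was not tested.

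As a description, Pearson's r of log2 CPM between Hydin and Slc11a1 was 0.993 over the 8 samples of batches a and b of the KO experiment, centred within batch, and -0.902 over the 6 samples of the full-deletion experiment. Hydin and Arhgap30 had 0.982 and 0.978, and Arhgap30 and Calml4 0.938 and 0.989. Slc11a1 and Necap2 had 0.896 and 0.953. In the KO experiment all members but Rragd were correlated positively with each other, as their selection on these samples makes likely, and nothing is read from it. In the full-deletion experiment Hydin, Arhgap30 and Calml4 went together and opposite to Slc11a1 and Necap2, while Rragd had values between -0.28 and 0.50. The samples share lines, libraries and WT b.

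Among 11637 genes compared over the same 8 samples, the 3 most like each member were recorded, and those reported follow. The pattern of Calml4 was closest to those of the alpha-tubulin genes Tuba3a (r = 0.994) and Tuba3b (0.992), near-identical copies that share reads, and of Syngr2 (0.987). Hydin was closest to Slc11a1 (0.993) and the integrin Itgb3 (0.988). The genes nearest to Slc11a1 were Hydin, the actin-capping protein Capg (0.992) and Fez2 (0.991). Arhgap30 had Susd1 (0.994), Dap (0.993) and Sec14l4 (0.991). Necap2 had Papss1 (0.991), Klc3 (0.989) and Pla2g16 (0.989), and Rragd had Rfxank (0.984), Pde7a (0.981) and Nphs1os (0.980). Not one of the genes that are no member was called in the full deletion by edgeR, where 0.0687% of all tested genes were. Tuba3a, the closest to Calml4, stood at 0.39 there (adjusted p = 0.119 in edgeR), against -1.59 for Calml4.

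The genes around Necap2 were followed further. The window was chosen after the values were seen and is given without a test. Of the 32 other tested genes that begin within 1 Mb of Necap2 on chromosome 4, 31 had a log2 fold change above 0 in the KO against WT, 32 with Hmga1 added back and 31 with Hmga2 added back. Over all tested genes 48.6%, 50.1% and 49.7% were above 0. The window's median was 0.83 in the KO and, in the same order, 1.07 and 0.71 in the add-backs, and the value of Necap2 itself, 0.63 in the KO, lay below the first. Among 9170 windows of this size with at least 10 other tested genes, centred on a gene each, that of Necap2 ranked 1 from the highest in the KO, 2 in the add-back of Hmga1 and 22 in that of Hmga2. In the full deletion against its WT it ranked 314 of 8374, with 96.2% of the windows below it. Neighbouring windows overlap and share genes.

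The genes of this stretch have no role in common. Sdhb, a subunit of succinate dehydrogenase, stood at 0.50 in the KO and at 0.61 and 0.42 in the add-backs of Hmga1 and Hmga2. Casp9, the initiator caspase of the mitochondrial pathway, was at 0.87, 1.22 and 1.02. Spen, a repressor that works with Xist, was at 0.21, 0.35 and 0.20. The peptidylarginine deiminases Padi2, Padi3, Padi4 and Padi6 lie side by side and had the values 1.98, 2.36, 1.49 and 2.79 in the KO. In the full deletion against its WT they were at 1.04, 1.34, 0.35 and 1.81. Epha2, a receptor tyrosine kinase, was the exception at -0.09 in the KO. These genes are named after their values were seen.

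By distance, the median in the KO was 0.02 for the 9 genes from 2 to 1 Mb below Necap2, 0.88 for the 9 in the last 1 Mb, 0.80 for the 23 in the first 1 Mb above it, 0.52 for the 5 between 2 and 3 Mb and 0.93 for the 5 between 3 and 4 Mb. The single gene between 1 and 2 Mb had 0.67. All 11 genes from 1 to 4 Mb above Necap2 were thus higher in the KO, but the median between 3 and 4 Mb was only 0.20 and 0.29 in the add-backs of Hmga1 and Hmga2. Between 4 and 5 Mb above, for 4 genes, it was -0.06. In the add-backs the median over the 9 genes of the last 1 Mb below was 1.30 (Hmga1) and 1.205 (Hmga2). The shift showed in both batches. Over the 21 genes within 1 Mb whose counts averaged 100 or more, the median ratio to WT of the same batch was 1.47 and 1.43 in KO a and b, 1.90 and 1.67 with Hmga1 added back and 1.70 and 1.59 with Hmga2 added back. Between 19 and 21 of the 21 were higher in each sample. In the full-deletion experiment the ratio to the mean of its WT was 1.15, 1.07 and 1.099, with 14, 11 and 13 of the 21 higher. There the median of the 30 tested genes of the window was 0.37, with 20 above 0 against 53.4% of all genes.

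**Figure D4:**
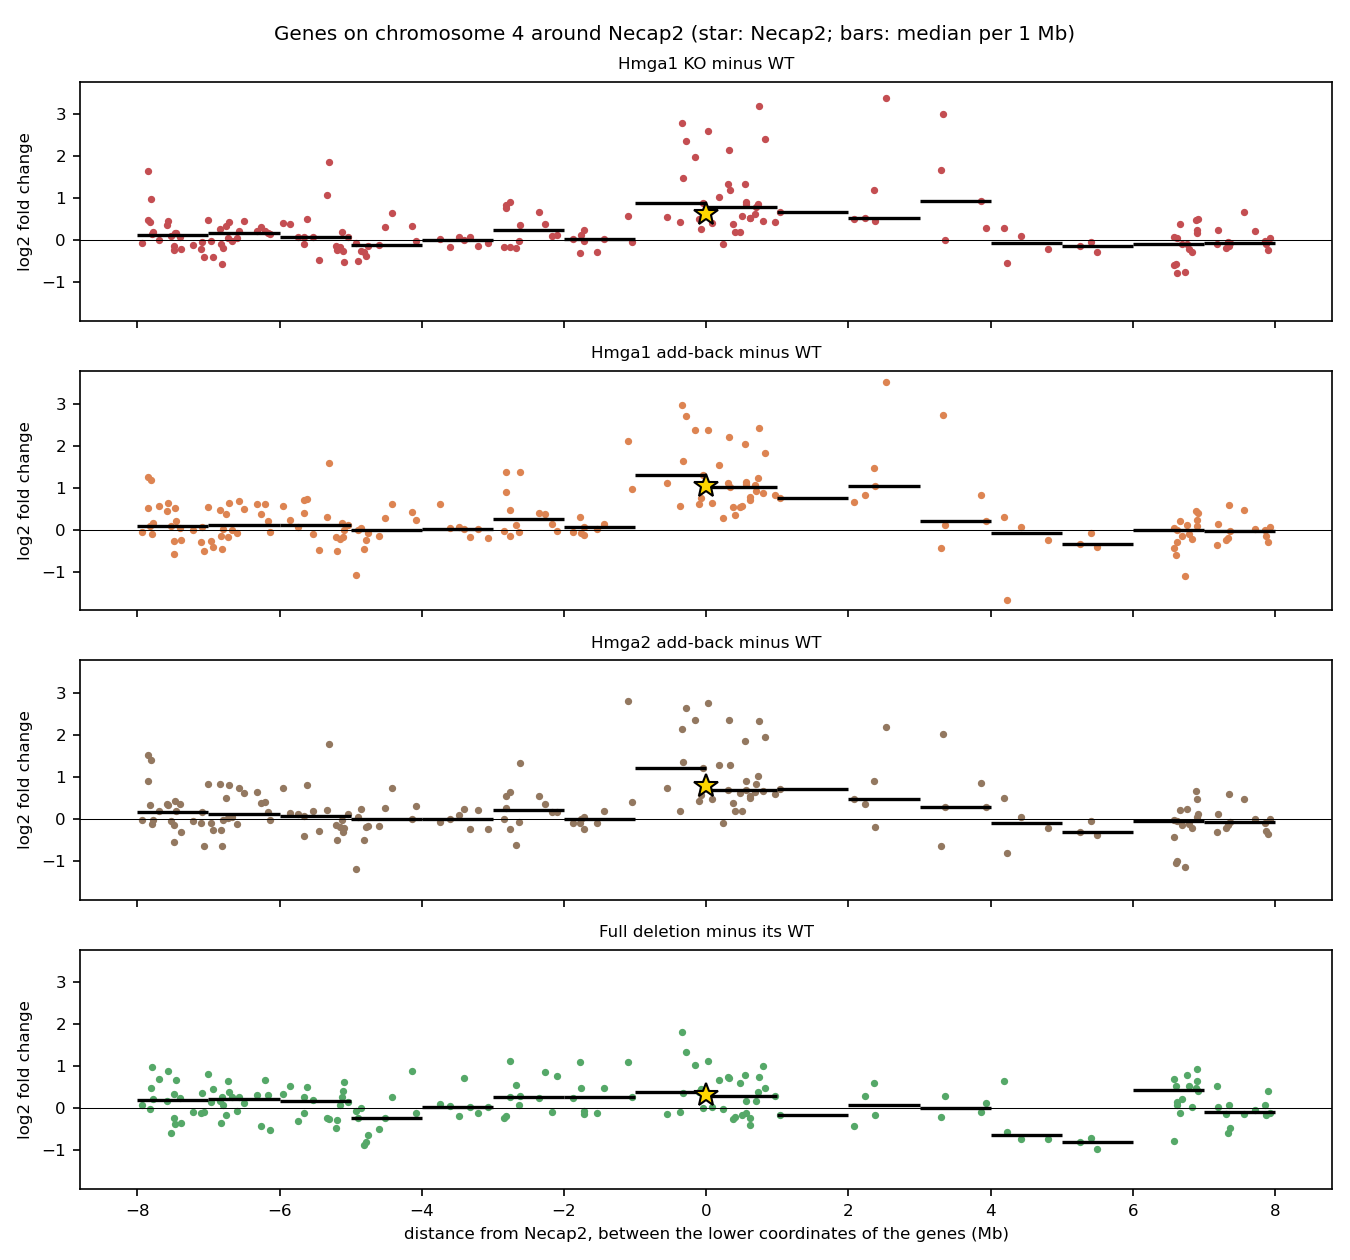
log2 fold change (y axis) of the tested genes on chromosome 4 within 8 Mb of Necap2 against their distance from it (x axis, Mb), in each of 4 comparisons. Dots are genes, black bars the median per 1 Mb and the star Necap2. In the KO and both add-backs the bars next to Necap2 lie between 0.68 and 1.30, and those of the full deletion at 0.39 and 0.30.

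For the 5 other members the same window was taken. In the KO the median over the tested genes within 1 Mb was 0.10 for Hydin (24 genes), -0.07 for Slc11a1 (33), -0.09 for Arhgap30 (37), -0.19 for Rragd (11) and 0.10 for Calml4 (16). Rragd, itself lower in the KO, had the lowest of these medians, with 4 of 11 genes above 0, and only 1.23% of the windows had a lower one. From the highest of 9170, its window ranked 9053 in the KO, 9062 with Hmga1 added back and 8111 with Hmga2 added back. In the full deletion the window of Rragd ranked 8007 of 8374. Calb2, a calcium-binding protein gene that starts before Hydin, stood at 1.90 in the KO (SE 0.53), and Vil1, the villin gene of the brush border next to Slc11a1, at 1.29 (SE 0.33). Skor1, near Calml4 and with a mean of only 16.9 counts, went the other way at -2.15 (SE 1.05). These genes are named for their size, after the values were seen. Of the 3 nearest genes on each side of a member, 36 in all, 31 entered the test of the KO experiment and 30 that of the other. In the full deletion 0 of them were called, beside 0.0687% of all tested genes.

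At Calml4 the neighbours went the other way in the full deletion. Cln6, a gene of the endoplasmic reticulum membrane mutated in neuronal ceroid lipofuscinosis, lies 6098 bases from it and had a log2 fold change of 1.099 (adjusted p = 0.0217 in edgeR). Gm10653, which overlaps Calml4 on the opposite strand, had 1.35 (adjusted p = 0.0478 in edgeR). Calml4 itself was at -1.59 in these samples. Counting used the strand, so reads of this overlapping pair were kept apart. Mdn1, a ribosome assembly gene near Rragd, was at -0.73 (adjusted p = 0.0337 in edgeR).

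In sequence the 6 genes had little in common. AT content over the whole gene was 55.3% for Hydin, 55.2% for Rragd, 53.3% for Arhgap30, 52.3% for Calml4, 47.9% for Slc11a1 and 45.8% for Necap2, on both sides of the median of 53.6% over 12599 tested genes. At least 98.8% of the 47-base windows in their exons of the NCBIM37 annotation occurred once in the genome. Few reads from those exons could have been placed at random. These exons are not the same as the counted ones, from 861 bases against 1272 counted for Calml4 to 3697 against 2304 for Slc11a1. Counted bases outside them were not checked. Hydin overlaps AC069308.1 on its own strand, and reads there may be shared.

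Partners of 5 of the proteins, taken from lists, were followed in the full deletion. Of the tested genes 0 of 8 of the ciliary central apparatus, 0 of 15 of metal and iron transport, 0 of 20 of clathrin and AP endocytosis, 0 of 33 of the Rag and mTORC1 pathway and 0 of 6 calmodulins and brush border genes were called by edgeR. Over all 13098 genes tested 0.0687% were called, so that 0 in lists of this size says little. The list medians were -0.11, 0.36, 0.02, 0.18 and -0.47 in that order, beside 0.04 over all genes. Without WT b they were 0.07, 0.22, 0.0054, 0.08 and -0.17, beside 0.03, so that the ciliary median changed sign.

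Next to Hydin, Cfap74 had a log2 fold change of -0.17 and Stk36, a kinase needed for the central pair, of 0.69 (adjusted p = 0.124 in edgeR). Summed over 14 genes, markers of multiciliated cells were at 58.5 to 96.4 CPM in the second WT, 56.5 to 63.5 in the full deletion and 33.6 to 65.4 in the KO experiment, and their part in the level of Hydin was not tested. Among the metal genes Tfrc, the transferrin receptor, was at -0.79 (adjusted p = 0.0360 in edgeR), Steap2, a metalloreductase, at -0.88 (adjusted p = 0.0283 in edgeR) and Ftl1, the ferritin light chain, at 1.65 (adjusted p = 0.0659 in edgeR). Ftl1 was called higher without WT b and lower in batch b than in batch a.

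Among the endocytosis genes Cltb, the clathrin light chain, was at -1.15 (adjusted p = 0.0427 in edgeR), while Necap1, the paralog of Necap2, was at 0.55 (adjusted p = 0.0779 in edgeR). In the Rag pathway Mitf, a transcription factor that Rag GTPases hold at the lysosome, was at -0.79 (adjusted p = 0.0283 in edgeR) and Lamtor3, a Ragulator subunit, at 0.63 (adjusted p = 0.148 in edgeR). Of the calmodulin family Cetn3, a centrin, was at -1.14 (adjusted p = 0.0363 in edgeR), and the highest tested gene of that list stood at 0.97. In the KO against WT the medians of these 5 lists lay between -0.03 and 0.30.

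**Figure D5:**
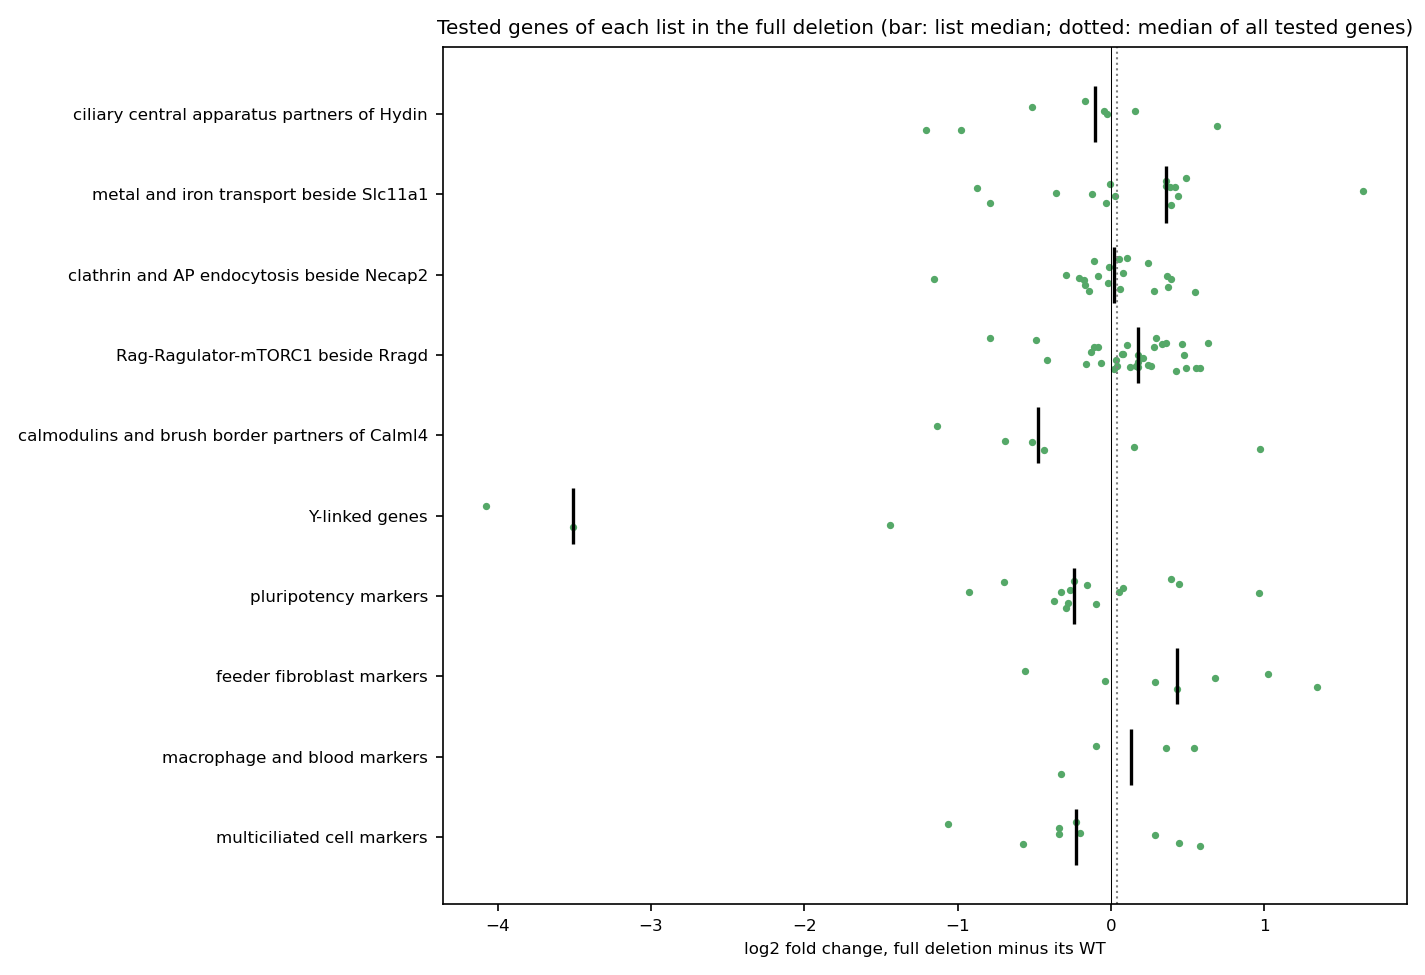
log2 fold change in the full deletion against its WT (x axis) of the tested genes of each list (rows). Dots are genes, bars the list median and the dotted line the median of all tested genes, 0.04. The calmodulin list has its median at -0.47 (-0.17 without WT b), the ciliary list at -0.11 (0.07 without WT b), and the Y-linked genes lie between -4.07 and -1.44.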

How the data were processed

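Strand-specific libraries were made from total RNA after removal of ribosomal RNA. Per the methods of the study, the authors cut 3 bases off the start of each 50-base read, aligned the reads to mm9 (NCBIM37) with QuasR and Bowtie, placed a multi-mapping read at 1 random alignment and counted reads on the strand of each UCSC known gene. The deposited values are raw counts of 21662 genes, all whole numbers and summing to 13465399 to 34952136 per sample.

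A mean count of 10 or more was required for a test, which 13912 genes met among the KO samples and 13098 among the full-deletion samples. Counts were TMM-normalized per experiment and tested by the quasi-likelihood test of edgeR 4.0.16 (R 4.3.3), with batch as a term in the KO experiment (9 samples) and none in the full-deletion experiment (6 samples), and Benjamini-Hochberg adjustment over all genes tested. The scripts were tested on simulated data. Alternatives were DESeq2 1.42.0, limma 3.58.1 (log2 CPM, prior count 2), other scalings, filters, thresholds and blocks, and leaving out each sample.

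In the KO experiment, the methods model a batch of libraries prepared on the same day and run on the same flow cell. The letters were taken as these batches, as a supplementary legend of the study names them, and same-letter samples deviated together (correlations of 0.321 to 0.758). In the full-deletion experiment they did not (0.0639, 0.0703 and -0.0546). No pair of libraries agreed within sampling noise (chi-square per degree of freedom at least 4.04).

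The members and the gene lists were chosen with earlier results of these data known. The genes named are the 6 members, up to 3 genes of each list with the largest change in the full deletion at a mean count of at least 50, the 3 genes most like each member, the 3 nearest on each side and any of these called. Genes within 1 Mb of a member were added after the values were seen. Of the 21662 symbols, 19497 (90.0%) were matched to the NCBIM37 annotation. Figures were made with matplotlib 3.10.9. Some items and 1 gene list are not reported here.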

Additional observations from a re-analysis of the deposited data

Results flagged for a closer look

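Hydin, Arhgap30 and Calml4 stood out because every sample of the KO lay above its WT while every sample of the full deletion lay below its own. The separation in the KO was fixed by the selection, and every full-deletion sample lay below every WT sample for 24.7% of all tested genes. The log2 fold changes were 1.82 and -0.96 for Hydin, 1.47 and -1.15 for Arhgap30 and 2.42 and -1.59 for Calml4, the first in the KO and the second in the full deletion. The difference between the experiments was not tested, since the first value of each gene was part of its selection.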

How the results depend on the processing

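In the full deletion 0 members were called, but 2 at an adjusted p under 0.05 and 3 with DESeq2, and 0 to 1 when single samples were left out (1 without WT b). Over all genes 9 were called, and 363 at an adjusted p under 0.05, 463 with DESeq2, 31 without the filter, 3 with summed counts, 4 with the replicate block and between 1 and 362 with single samples left out (362 without WT b, 1 without any one full-deletion sample). The replicate block changed no other call of a member, and its letters only name the samples there. Rragd in the full deletion changed sign, from -0.05 to 0.22 with summed counts, and ranged from -0.14 to 0.0488 with single samples left out. The directions of Hydin, Arhgap30 and Calml4 held in all 14 settings, the reported one included, with log2 fold changes from -1.09 to -0.63, -1.33 to -0.75 and -1.80 to -1.15. Those of Slc11a1 (0.23 to 0.70) and Necap2 (0.18 to 0.59) held as well. Between batches b and a, 1 member was called with no minimum fold, and 326 genes became 628 at an adjusted p under 0.05, 2132 with no minimum fold and 15 to 659 with single samples left out (15 without Hmga1 KO a). In the KO experiment each member kept its sign in all 17 settings, Calml4 for instance between 2.11 and 2.72 in the KO and Rragd between -0.53 and -0.45. The members were picked on these samples, which makes a kept sign likely, and nothing is read from it. Leaving out WT c, alone in its batch, could hardly move these values. Where a group was left with 1 sample it was assumed to vary like the others. Slc11a1 and Calml4 in WT rest on as few as 27 and 42 counts.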
